A study of Mus musculus with 37 samples.

Results

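N-oleoylethanolamine (NOE), the amide of oleic acid and ethanolamine, was compared with its vehicle DMSO in mouse pre-B leukaemia cells that carried an empty retroviral vector. The comparison uses 8 of the 37 RNA-seq libraries of the study, 4 from cells given 1 µM NOE and 4 from cells given DMSO. All 8 came from bone marrow pre-B cells of adult Arf-/- C57BL/6 mice that had been transformed with BCR-ABL1 and then transduced with MIG, an empty vector that expresses GFP. Every cell of every group therefore lacked Arf and carried BCR-ABL1, and all were grown in medium with serum and no added cytokine. Beside them stand 4 NOE and 4 DMSO libraries of cells with MIG-IK6, which express IK6, an Ikaros isoform without the DNA-binding zinc fingers that acts as a dominant negative, and 4 MIG libraries given 1 µM carbacyclin, a stable prostacyclin analogue. How long the cells were treated is not stated in the labels, which also do not say whether the replicates were separate cultures. The p-values therefore measure only a spread between libraries, estimated over all 37 libraries of the study.

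NOE belongs to the N-acylethanolamides, lipid signals that cells make from membrane phospholipid and break down by hydrolysis of the amide bond. It is known as a ligand of the nuclear receptor PPAR alpha and of the G protein-coupled receptor GPR119, as an activator of the channel TRPV1, and as an inhibitor of ceramidases, the enzymes that turn ceramide into sphingosine. Pre-B cells rearrange their immunoglobulin genes with the RAG recombinase, divide under the pre-B cell receptor and the interleukin-7 receptor, and leave the cell cycle before light chain rearrangement. BCR-ABL1 replaces much of the cytokine signal through STAT5 and ERK.

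The libraries held 48841076, 49666397, 35101670 and 28961454 counts with NOE and 31124823, 47969941, 29393905 and 29880636 counts with DMSO, over 35290 genes. Ribosomal protein genes took 8.818% to 11.638% of counts with NOE, and with DMSO 9.482%, 9.990% and 10.070% in 3 libraries but 15.713% in replicate 3. All 8 markers that define pre-B cells were expressed: Igll1, the surrogate light chain lambda5, had 1141, 1095, 1099 and 1039 CPM (counts scaled to the TMM library size) with NOE and 742, 753, 1005 and 766 CPM with DMSO. Markers of other lineages summed to 14.9 to 16.5 CPM with NOE and 3.29 to 4.74 CPM with DMSO for myeloid cells, with S100a8 and S100a9 at 0 counts in all 8 libraries and Mpo and Elane at 3 counts or fewer. These myeloid sums are over 7 markers. The 6 erythroid and megakaryocyte markers went the other way, with sums of 3.65 to 5.11 CPM with NOE and 8.25 to 16.4 CPM with DMSO. The 6 stromal and endothelial markers summed to 0.255 to 0.440 CPM with NOE and 0.271 to 0.578 CPM with DMSO. The T and NK marker sum was nearly all Lck, at 197, 192, 179.5 and 161 CPM with NOE and 127, 133, 169 and 137 CPM with DMSO, while Cd3e, Cd3g, Cd3d and Ncr1 stayed below 0.1 CPM. Without DMSO replicate 3, 6478 genes were called for NOE against DMSO, in place of 7050, and with the ribosomal protein share as a covariate 8807 were. Calls of named genes that were lost without that library are marked beside them. Carbacyclin replicate 4 likewise had 15.824% of its counts in ribosomal protein genes, against 7.485% to 9.596% in the other carbacyclin libraries. What part the other lineages played in the results below was not tested. Because RNA was taken from bulk cells, fewer cells of a kind and less RNA per cell cannot be told apart in any result below.

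The response was broad and nearly even in both directions. Of 15699 genes with enough counts to test, 3547 were higher with NOE (22.6%) and 3503 were lower (22.3%) at an adjusted p under 0.05 by edgeR's quasi-likelihood test with Benjamini-Hochberg adjustment. Together these were 7050 genes (44.9%). These shares are the background against which counts in gene lists are read here. At least a 2-fold change was reached by 1737 genes (11.1%), 972 with higher levels (6.19%) and 765 with lower levels (4.87%). The NOE and DMSO libraries did not overlap for 6611 genes (42.1%), 21.2% higher and 20.9% lower. The median change of all tested genes was −0.003 on the log2 scale, written throughout as NOE minus DMSO.

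MIG and IK6 cells shared most of the response, and these comparisons have no library in common. In IK6 cells 6425 genes passed (40.9%), 3575 higher with NOE (22.8%) and 2850 lower (18.2%). The genes higher in both cell types numbered 2425, which is 68.4% of those higher in MIG and 67.8% of those higher in IK6. The genes lower in both numbered 2259, which is 64.5% of those lower in MIG and 79.3% of those lower in IK6. Opposite calls were rare: 13 genes higher in MIG were lower in IK6, and 78 genes lower in MIG were higher in IK6. The difference between the MIG and the IK6 change passed its own test for 1385 genes (8.82%), with 346 changed upward in MIG relative to IK6 (2.2%) and 1039 changed downward (6.62%).

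**Figure D1:**
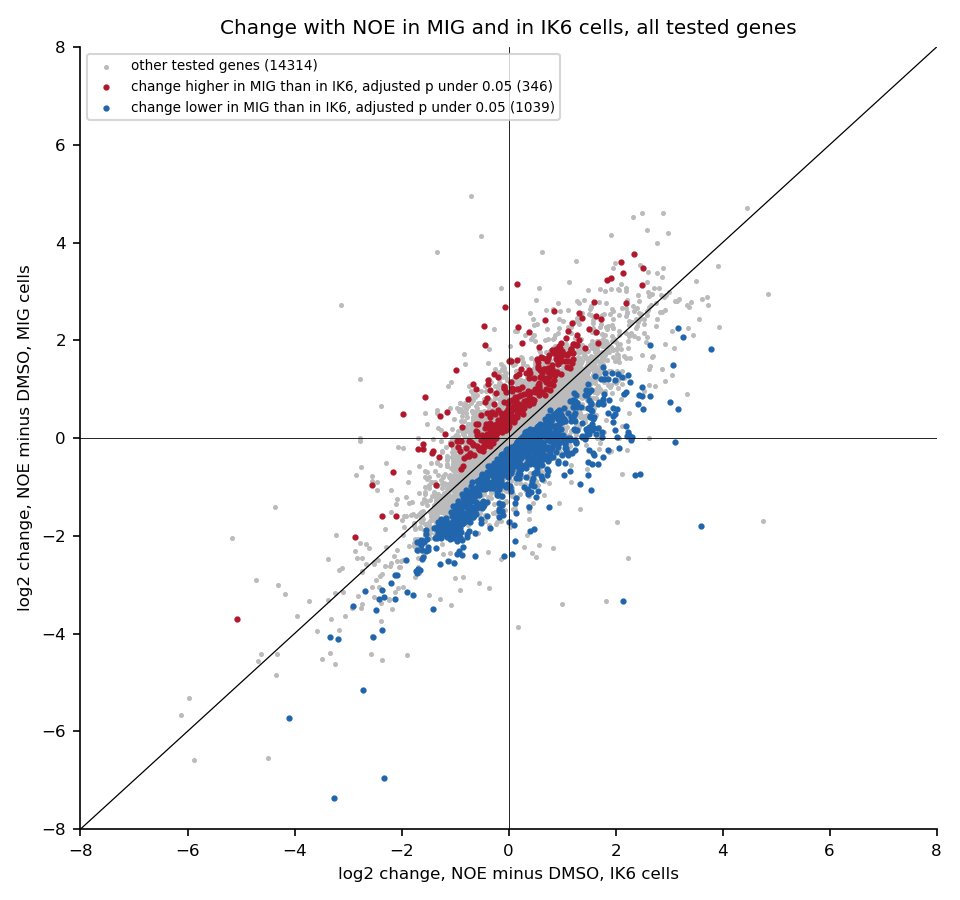
Log2 change with NOE in MIG cells (vertical axis) against the log2 change in IK6 cells (horizontal axis), 1 point per tested gene; coloured points differ between the cell types at an adjusted p under 0.05 and the diagonal marks equal change. Most points follow the diagonal, and the coloured points lie mainly below it, 1039 below against 346 above.

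The genes that bind, make or break down N-acylethanolamides changed by 2.07-fold at most. Of 30 listed, 19 were tested, with a median change of 0.22. With NOE 9 were higher and 3 lower, beside 22.6% and 22.3% of all tested genes. The genes of the receptors and the channel named above were at or near 0. Ppara had 0.0620, 0.0200, 0.0283 and 0.0680 CPM with NOE and 0.0321, 0.0424, 0.0392 and 0.0339 CPM with DMSO, and Gpr119 and Trpv1 had at most 1 count in any library. Pparg and Cnr1, encoding PPAR gamma and the central cannabinoid receptor, had 0 counts in all 8 libraries, as did the enzyme genes Ptgs2, Pla2g4e and Hrasls. A count of 0 allows up to 0.0185 CPM in the NOE libraries pooled and up to 0.0217 CPM in the DMSO libraries pooled, counting error only. Fabp3, Fabp7 and Hrasls5 were likewise too low to test. Ppard, which encodes PPAR delta, was the PPAR gene with enough counts to test: 75.6, 73.4, 62.6 and 60.6 CPM with NOE and 56.7, 57.6, 56.8 and 57.9 CPM with DMSO. Its libraries did not overlap and its change was 0.25 (SE 0.10, adjusted p = 0.0314), but without NOE replicate 1, NOE replicate 2 or DMSO replicate 3 the adjusted p was 0.0908, 0.0734 and 0.0673.

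Among the other receptors, Gpr18, which encodes a receptor for lipid amino acids, had 17.1, 16.3, 17.1 and 15.1 CPM with NOE and 7.22, 7.44, 9.95 and 7.18 CPM with DMSO. It rose 2.07-fold (log2 1.05, SE 0.11, adjusted p = 2.28e-09), with no overlap. Cnr2, the peripheral cannabinoid receptor of B cells, rose 1.61-fold to 9.70 ± 0.721 CPM with NOE, against 6.02 ± 0.523 CPM with DMSO (SD, n = 4 each; adjusted p = 1.96e-06). Gpr55, a lysophospholipid receptor, was low in both groups and rose, with 0.419 ± 0.0815 CPM with NOE and 0.213 ± 0.0619 CPM with DMSO (adjusted p = 0.0106). Of the carriers, Fabp5, an intracellular fatty acid binding protein, had 156, 147, 136 and 145 CPM with NOE and 77.0, 88.1, 127 and 90.0 CPM with DMSO. It rose by 0.61 (adjusted p = 0.00194), and DMSO replicate 3 was the highest of its group. The sterol carrier Scp2 had 80.4 ± 2.04 CPM with NOE and 77.9 ± 11.5 CPM with DMSO and did not pass the test (adjusted p = 0.773).

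The changes of the enzymes reached 0.66 at most on the log2 scale, in either direction. Faah, the fatty acid amide hydrolase that degrades NOE, had 1.21 ± 0.136 CPM with NOE and 1.79 ± 0.152 CPM with DMSO (SD, n = 4 each), a fall by 0.57 (SE 0.15, adjusted p = 0.002) without overlap. Naaa, the lysosomal acid amidase, fell by 0.26 (adjusted p = 0.0119), a call lost without DMSO replicate 2, NOE replicate 1 or NOE replicate 3, where the adjusted p was 0.0529, 0.0510 and 0.0697. On the synthetic side, Napepld, the main phospholipase D of N-acylethanolamides, had 7.49 ± 0.411 CPM with NOE and 7.10 ± 0.767 CPM with DMSO (adjusted p = 0.591), and Abhd4 had a change of −0.25 (adjusted p = 0.0522). Gdpd1 and Gdpd3, lysophospholipases D of the alternative route, rose by 0.63 and 0.66 (adjusted p = 4.04e-08 and 0.0119). Gde1, of the same route, fell by 0.37 (adjusted p = 0.0161), and without DMSO replicate 3 or NOE replicate 1 the adjusted p was 0.0737 and 0.0605. The list held 1 member with a lower call, in place of 3, when NOE replicate 1 was left out. Of the monoacylglycerol lipases, Mgll and Abhd6 rose by 0.32 and 0.35 (adjusted p = 0.00255 and 0.00263) and Abhd12 had a change of 0.15 (adjusted p = 0.205). The diacylglycerol lipases Dagla and Daglb and the phospholipase Pla2g16 did not pass the test, with adjusted p of 0.572, 0.619 and 0.923.

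Genes of ceramide and sphingosine metabolism were called in both directions, with the largest rise in a receptor. Of 29 listed, 24 were found. The ceramide synthases Cers1, Cers2, Cers4, Cers5 and Cers6 were not found under these symbols. Of 22 tested, 9 were higher and 4 lower, with a median of 0.14, beside 22.6% and 22.3% of all tested genes. Not every higher member is named. The lower count was 2 without DMSO replicate 2 or without DMSO replicate 4. S1pr1, the sphingosine 1-phosphate receptor that guides lymphocytes out of tissues, had 24.0, 25.8, 26.9 and 26.0 CPM with NOE and 5.74, 5.49, 5.92 and 5.55 CPM with DMSO. Every NOE library was above every DMSO library, and S1pr1 rose 4.53-fold (log2 2.18, SE 0.08, adjusted p = 4.05e-21). The related receptor gene S1pr4 had 61.8 ± 11.6 CPM with NOE and 32.3 ± 6.47 CPM with DMSO. S1pr4 rose by 0.94 (adjusted p = 3.21e-05) without overlap, and the dependence of this call on single libraries was not examined. Sgpl1, the lyase that removes sphingosine 1-phosphate, had 55.8 ± 3.82 CPM with NOE and 35.1 ± 0.894 CPM with DMSO (SD, n = 4 each) and rose by 0.67 (adjusted p = 3.77e-12). The lower members were Sgms1, Sgpp1, S1pr2 and Acer3. Sgms1, which makes sphingomyelin from ceramide, fell to 23.7 ± 1.15 CPM with NOE, against 36.1 ± 0.598 CPM with DMSO (adjusted p = 1.10e-13). Sgpp1, a sphingosine 1-phosphate phosphatase, fell to 43.6 ± 3.52 CPM with NOE, against 74.0 ± 4.57 CPM with DMSO (adjusted p = 2.85e-10). S1pr2, a further sphingosine 1-phosphate receptor, fell by 0.34 (adjusted p = 0.0259), a call lost without DMSO replicate 2 or 4 or NOE replicate 1, 3 or 4. Acer3, an alkaline ceramidase, fell by 0.21 (adjusted p = 0.0124), a call lost without DMSO replicate 2 or 4 or NOE replicate 2.

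The ceramidase genes gave small changes in both directions. Asah2, the neutral ceramidase, had 32.4, 35.2, 38.8 and 38.7 CPM with NOE and 27.7, 28.2, 22.3 and 28.2 CPM with DMSO. It rose by 0.44 (adjusted p = 3.02e-04) with no overlap. Asah1, which encodes the acid ceramidase, had 96.8, 97.1, 96.7 and 101 CPM with NOE and 91.2, 90.0, 93.8 and 87.0 CPM with DMSO. Its libraries did not overlap and its rise of 0.11 passed narrowly (adjusted p = 0.0329), but not without NOE replicate 4 (adjusted p = 0.0907).

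Target genes of the PPARs went both ways. Of 32 listed, 23 were tested, and 5 were higher and 8 lower with NOE in MIG cells, with a median of −0.19. The shares of all tested genes there were 22.6% and 22.3%. In IK6 cells 9 were higher and 2 lower, beside 22.8% and 18.2% of all tested genes. The list covers fatty acid oxidation, transport and storage. Acsl1, a long-chain acyl-CoA synthetase, had 119, 129.5, 137 and 137 CPM with NOE and 66.8, 66.8, 64.8 and 66.7 CPM with DMSO. It rose 1.97-fold (log2 0.98, SE 0.05, adjusted p = 2.74e-18). Cpt1a, the carnitine palmitoyltransferase that admits fatty acids to mitochondria, had 32.1, 31.6, 32.9 and 31.3 CPM with NOE and 48.9, 50.7, 53.5 and 51.9 CPM with DMSO, and it fell by 0.68 (SE 0.05, adjusted p = 2.82e-13). Cd36, a fatty acid transporter, fell to 0.510 ± 0.0952 CPM with NOE, against 3.46 ± 0.689 CPM with DMSO, 6.81-fold lower (SD, n = 4 each; adjusted p = 1.23e-14). Angptl4, a secreted inhibitor of lipoprotein lipase, fell by 0.71 (adjusted p = 0.00586), and Acot2, a mitochondrial acyl-CoA thioesterase, fell by 0.54 (adjusted p = 2.19e-07). Further genes of fatty acid oxidation were called in both directions. Cpt2, the inner membrane partner of Cpt1a, Acadl, an acyl-CoA dehydrogenase, and Hadha and Hadhb, the subunits of the trifunctional protein, fell by 0.23, 0.30, 0.36 and 0.27 (adjusted p = 0.00766, 0.00124, 0.00366 and 0.0115). Without DMSO replicate 3 the adjusted p was 0.0572 for Cpt2 and 0.0523 for Hadhb. Slc25a20, the carnitine carrier, rose 1.81-fold (adjusted p = 5.33e-07), and Acaa1a and Acadm rose by 0.37 and 0.29. Plin2, a lipid droplet coat protein, had a change of −0.27 (adjusted p = 0.0718).

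**Figure D2:**
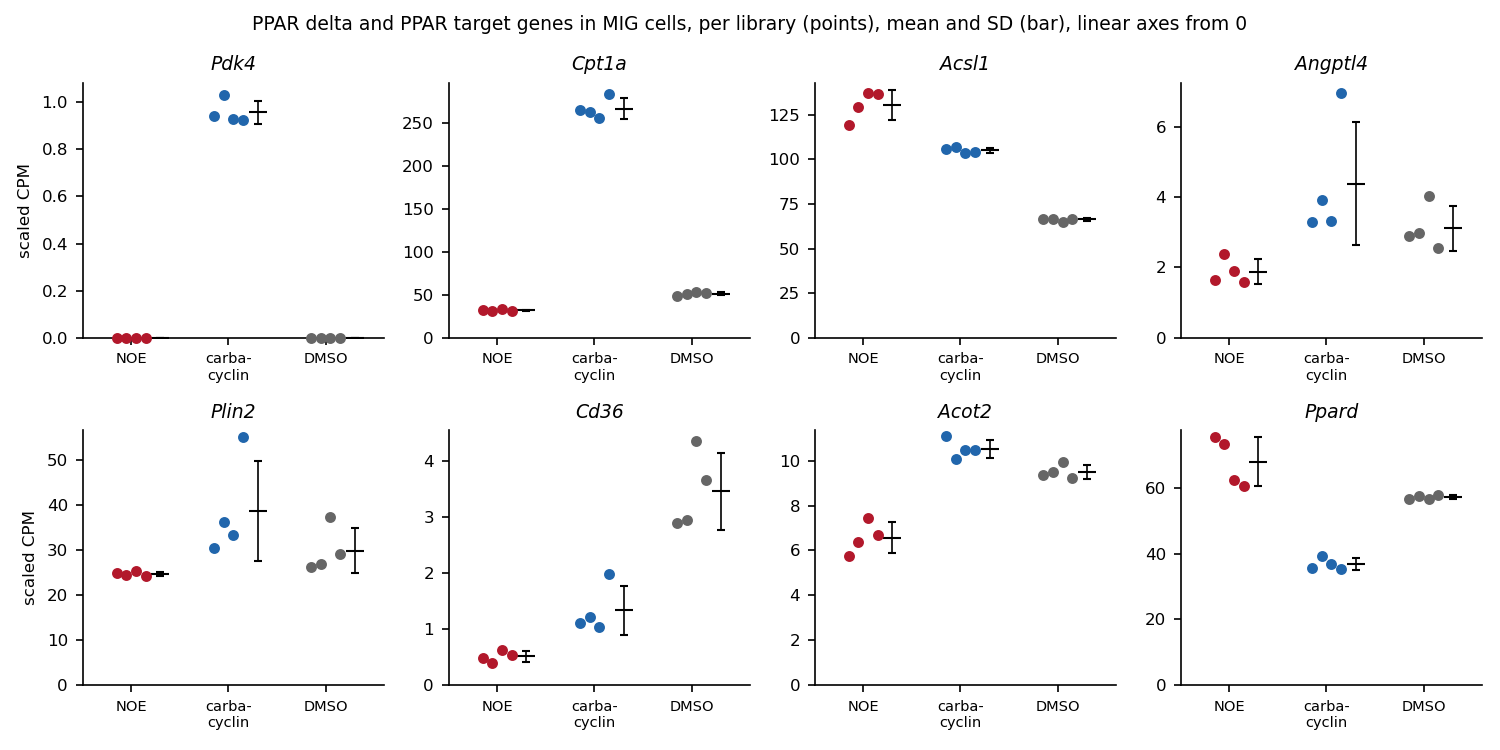
Scaled CPM of Ppard and of 7 PPAR target genes in MIG cells given NOE, carbacyclin or DMSO, 1 point per library with the mean and SD of 4 libraries beside them; each vertical axis is linear and starts at 0. Cpt1a sits between 31.3 and 32.9 CPM with NOE, under both other groups, and Acsl1 is highest with NOE.

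Of 15 target genes of the liver X receptors (LXR) and RXR 4 were higher and 3 lower (median 0.03), shares near those of all tested genes, 22.6% and 22.3%. Abcg1, a cholesterol exporter, had 76.9, 77.2, 83.4 and 77.8 CPM with NOE and 40.2, 38.9, 41.5 and 38.9 CPM with DMSO, a 1.98-fold rise (SE of log2 0.06, adjusted p = 5.75e-16). Mylip, the ligase that removes the LDL receptor, rose to 60.5 ± 0.935 CPM with NOE, against 33.0 ± 0.927 CPM with DMSO (adjusted p = 9.33e-18). Nr1h2, which encodes LXR beta itself, rose by 0.31 (adjusted p = 0.0177), a call lost without NOE replicate 1 or 2, and Arl4c by 0.15 (adjusted p = 0.0302), a call lost without NOE replicate 3. The lower members were the fatty acid desaturases Scd1 and Scd2, which fell by 0.32 and 0.25 (adjusted p = 4.84e-04 and 0.00191), and the phospholipid remodeller Lpcat3, which fell by 0.29 (adjusted p = 0.0104), a call lost without DMSO replicate 3 or NOE replicate 3 or 4.

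Of 25 genes of cholesterol synthesis and uptake 16 were lower and 1 higher (median −0.29), against 22.3% and 22.6% of all tested genes. In IK6 cells 12 were lower and 1 higher, against 18.2% and 22.8% of all tested genes. Pmvk, phosphomevalonate kinase, had 31.0, 28.5, 29.2 and 26.4 CPM with NOE and 52.1, 53.1, 59.6 and 56.0 CPM with DMSO, and Acat2, a cytosolic thiolase, had 57.5, 55.4, 58.9 and 54.6 CPM with NOE and 93.5, 92.5, 109 and 92.4 CPM with DMSO. They fell 1.92-fold and 1.71-fold (adjusted p = 2.32e-12 and 3.75e-10). The single higher gene was Tm7sf2, a sterol reductase, at 17.0 ± 2.34 CPM with NOE and 10.5 ± 2.47 CPM with DMSO (adjusted p = 0.00562). Insig1, which holds the sterol sensor in the endoplasmic reticulum, fell by 0.45 (adjusted p = 3.38e-08).

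Genes that respond to retinoic acid gave 7 higher and none lower of 13 tested (median 0.56), beside 22.6% and 22.3% of all tested genes. Tgm2, a tissue transglutaminase, had 68.0, 65.2, 60.4 and 58.8 CPM with NOE and 8.18, 8.45, 11.2 and 9.52 CPM with DMSO. It rose 6.79-fold (log2 2.76, SE 0.13, adjusted p = 2.50e-18), with a wide gap between the groups. Rxra, the retinoid X receptor alpha that pairs with PPARs and LXRs, had 11.5, 12.5, 13.1 and 11.9 CPM with NOE and 4.53, 5.49, 5.13 and 3.93 CPM with DMSO, a 2.55-fold rise (SE of log2 0.09, adjusted p = 2.29e-14). Mmp9, a gelatinase, rose, with 0.910, 1.04, 0.962 and 1.02 CPM with NOE and 0.0321, 0.0424, 0 and 0.0677 CPM with DMSO (adjusted p = 2.41e-10). Tspan15, a tetraspanin, rose 2.95-fold (adjusted p = 6.20e-09), with NOE replicate 4 the lowest of its group.

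**Figure D3:**
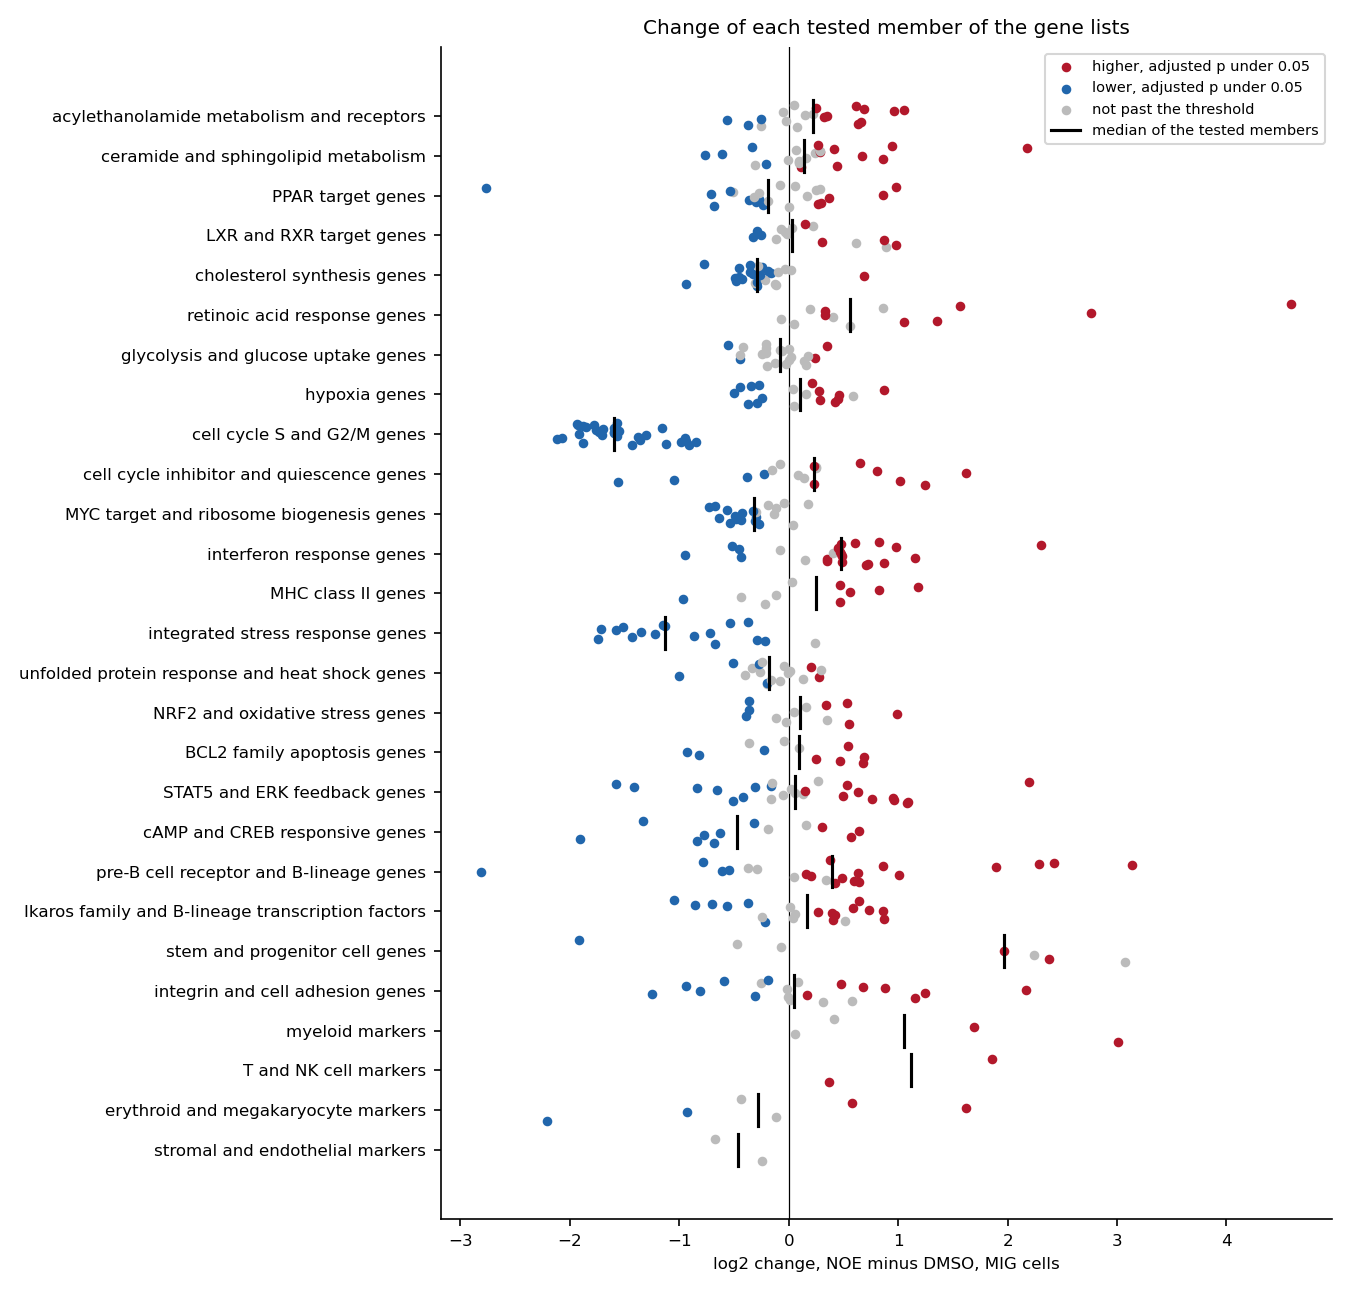
Log2 change (horizontal axis, NOE minus DMSO in MIG cells) of each tested member of 27 gene lists, 1 row per list; red points are higher and blue points lower at an adjusted p under 0.05, and black bars are list medians. The cell cycle list lies wholly below 0 with a median of −1.60, and the stress response list follows at −1.13.

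The cell cycle genes gave the most uniform result. All 30 genes of S phase and of G2 and mitosis were lower with NOE, by 0.85 to 2.11 on the log2 scale. Their median was −1.60, and libraries did not overlap for any of the 30. Of all tested genes 22.3% were called lower, and 20.9% were lower without overlap. Leaving out any single library kept all 30 lower. Ccna2, cyclin A2, had 31.6, 35.7, 36.2 and 39.2 CPM with NOE and 137, 132, 139.7 and 129.7 CPM with DMSO. It fell 3.77-fold (log2 −1.91, SE 0.07, adjusted p = 1.10e-21). Ccnb1, the mitotic cyclin B1, had 39.6, 42.6, 42.7 and 39.8 CPM with NOE and 119.8, 125, 132 and 120.4 CPM with DMSO, 3.02-fold lower (adjusted p = 3.40e-19). Kif11, the motor that parts the spindle poles, fell 3.82-fold to 59.4 ± 7.01 CPM with NOE, against 226 ± 13.1 CPM with DMSO (SD, n = 4 each), and Top2a, topoisomerase II alpha, fell 3.69-fold to 202 ± 24.6 CPM, against 745 ± 30.7 CPM. Mcm6, a subunit of the replicative helicase, fell 1.97-fold (adjusted p = 3.11e-13).

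In IK6 cells the same 30 genes were all lower too, with a median of −1.04, against 18.2% of all tested genes lower there. The fall was larger in MIG for 16 of the 30 by the test of the difference, while 6.62% of all genes were called in that direction. Ccnb1 changed by −1.59 in MIG and −0.82 in IK6 cells (difference −0.78, adjusted p = 4.01e-07), and Mcm6 by −0.98 and −0.89 (difference −0.09, adjusted p = 0.701). Set directly against carbacyclin in MIG cells, NOE gave lower levels of all 30, against 26.8% of all genes lower than with carbacyclin.

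Promoter sequences are shown for the cell cycle genes because the members fell together, with a stress response and an interferon gene for contrast. RefSeq promoter windows of GRCm38.p6, 250 bases before to 50 after the gene start, were found for 24 of the 30 cell cycle genes, 25 windows in all. Searched on both strands and allowing overlap, CCAAT, the box bound by the factor NF-Y, was in 20 of the 25 windows and in 37.4% of all 32851 windows. TTTGAA, a form of the cell cycle genes homology region of mitotic genes, was in 9 of 25 and in 17.9% of all windows, and TTTGGCGC, a form of the E2F site, in 4 of 25 and 0.514%. The 120 bases before the start are given 5′ to 3′ on the gene's strand, with capitals for CCAAT (or its complement ATTGG) and TTTGAA (or TTCAAA) in the first 3 and for TTTGGCGC alone in Mcm6. Ccnb1 lies at chr13:100786487-100786606 (minus strand), Top2a at chr11:99024190-99024309 (minus), Kif11 at chr19:37376262-37376381 (plus) and Mcm6 at chr1:128359706-128359825 (minus).
Ccnb1: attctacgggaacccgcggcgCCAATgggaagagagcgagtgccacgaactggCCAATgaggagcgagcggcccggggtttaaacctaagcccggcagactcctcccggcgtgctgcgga
Top2a: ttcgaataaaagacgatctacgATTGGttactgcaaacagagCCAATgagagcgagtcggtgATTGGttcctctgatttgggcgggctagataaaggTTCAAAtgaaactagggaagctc
Kif11: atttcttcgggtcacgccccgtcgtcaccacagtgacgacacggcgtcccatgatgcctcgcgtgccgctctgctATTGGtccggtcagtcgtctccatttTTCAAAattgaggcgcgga
Mcm6: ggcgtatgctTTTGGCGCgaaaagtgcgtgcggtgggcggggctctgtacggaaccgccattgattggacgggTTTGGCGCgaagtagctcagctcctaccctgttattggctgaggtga
Ccnb1 held CCAAT 99 and 67 bases before the start, Top2a held it 98, 78 and 58 bases before and TTTGAA 23 before, and Kif11 held CCAAT 45 before and TTTGAA 19 before. Mcm6 held TTTGGCGC 110 and 47 bases before. A match describes these letters only and is not a binding measurement.

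Among genes that restrain the cycle, 7 of 17 were higher and 4 lower (median 0.23), beside 22.6% and 22.3% of all tested genes. Btg2, an antiproliferative gene, had 148, 153, 155 and 145 CPM with NOE and 45.8, 46.2, 54.6 and 49.0 CPM with DMSO, a 3.08-fold rise (SE of log2 0.08, adjusted p = 1.50e-17). Cdkn1a, which encodes the CDK inhibitor p21, had 122, 122, 107 and 99.8 CPM with NOE and 42.6, 43.6, 57.3 and 46.9 CPM with DMSO, a 2.37-fold rise (adjusted p = 1.37e-11). Foxo1, a factor of quiescence and of Rag transcription, rose to 197 ± 20.6 CPM with NOE, against 112 ± 5.67 CPM with DMSO (adjusted p = 4.24e-13). Cdkn2c, the inhibitor of CDK4 and CDK6 named p18, went the other way, 2.06-fold lower (adjusted p = 5.38e-14). The other lower members were Rb1, the retinoblastoma gene, down by 0.38 (adjusted p = 0.00126), Cdkn1c, below 1 CPM in both groups (adjusted p = 0.00227), and Btg1, whose fall by 0.23 (adjusted p = 0.0136) was lost without NOE replicate 1 or 2. Cdkn2a, the locus of Arf and of the CDK inhibitor p16, had 142, 123, 95.8 and 87.0 CPM with NOE and 61.6, 66.2, 115 and 67.7 CPM with DMSO. The groups overlapped through DMSO replicate 3 and the change of 0.53 did not pass the test (adjusted p = 0.0616). Without that library it was 0.78 (adjusted p = 0.00688). It also passed without NOE replicate 3 or 4 (adjusted p = 0.0411 and 0.0366) and with DESeq2 (adjusted p = 0.0438). So it did with upper quartile scaling, the ribosomal protein covariate or a minimum of 1 CPM (adjusted p = 0.029, 5.54e-12 and 0.044). The other alternatives gave no call. All cells were Arf-/-, so these counts do not measure working Arf, and gene counts do not tell the transcripts of the locus apart.

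Myc itself had 314, 329.6, 301 and 267 CPM with NOE and 307, 287, 303 and 285 CPM with DMSO and did not pass the test (adjusted p = 0.628). Of the list of MYC targets and ribosome biogenesis genes, Myc included, 13 of 20 were lower and none higher, with a median of −0.32. Of all tested genes 22.3% were lower and 22.6% higher. Nolc1, a nucleolar assembly protein, fell to 101 ± 3.27 CPM with NOE, against 157 ± 7.19 CPM with DMSO (SD, n = 4 each; adjusted p = 3.38e-13). Odc1, the first enzyme of polyamine synthesis, had 217, 208, 216 and 212 CPM with NOE and 323, 339, 425 and 323 CPM with DMSO, 1.65-fold lower (adjusted p = 3.63e-07). The genes for ribosomal proteins themselves gave 1 higher and 3 lower of 114 tested, with a median of −0.22. Their sum was 180992 CPM in DMSO replicate 3 and 94714, 101523 and 101913 CPM in the other DMSO libraries. With so wide a spread, few calls do not show equal levels.

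The amino acid and serine genes of the integrated stress response fell together. Of 17 tested, 16 were lower and none higher, with a median of −1.13 and no overlap for 16. Of all tested genes 22.3% were lower and 22.6% higher, and 42.1% had no overlap. With DMSO replicate 3 or NOE replicate 2 left out, 1 member was higher. Slc7a5, the large neutral amino acid transporter, had 64.7, 70.4, 64.6 and 58.4 CPM with NOE and 186, 192, 184 and 176 CPM with DMSO. It fell 2.86-fold (log2 −1.52, SE 0.06, adjusted p = 2.24e-19). Mthfd2, a mitochondrial folate enzyme, had 42.2, 43.5, 39.6 and 43.7 CPM with NOE and 121, 127, 134 and 123 CPM with DMSO, 2.99-fold lower (adjusted p = 8.52e-19). Shmt2, its partner in serine use, fell 2.55-fold (adjusted p = 1.37e-15). Asns, asparagine synthetase, had 52.8, 56.9, 58.7 and 60.4 CPM with NOE and 179.6, 183, 229 and 177 CPM with DMSO, and it fell 3.36-fold (adjusted p = 2.76e-15). In IK6 cells 12 members were lower and 3 higher with a median of −0.58, against 18.2% and 22.8% of all tested genes. By the test of the difference 11 of 17 changed further downward in MIG, against 6.62% of all tested genes. That count was 8 without NOE replicate 2 or 3 or without IK6 NOE replicate 1, and 12 without IK6 NOE replicate 3.

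The sequence TGATGNAA, the core of the amino acid response element bound by ATF4, was in 6 of 18 windows of 16 members and in 3.97% of all windows. The 120 bases before Asns, at chr6:7693210-7693329 on the minus strand, hold it 23 bases before the start, in capitals.
Asns: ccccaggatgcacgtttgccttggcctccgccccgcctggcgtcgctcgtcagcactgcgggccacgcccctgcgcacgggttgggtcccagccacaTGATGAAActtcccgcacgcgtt

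The unfolded protein response and heat shock genes gave 4 lower and 2 higher of 18, beside 22.3% and 22.6% of all tested genes. With DMSO replicate 1 left out, 1 was higher. Herpud1, of endoplasmic reticulum degradation, had 79.3, 77.9, 79.6 and 74.8 CPM with NOE and 152, 155, 169 and 149 CPM with DMSO, a fall by 1.00 (adjusted p = 6.48e-14). Hspd1, the mitochondrial chaperonin, fell by 0.51 (adjusted p = 6.45e-06), and the cytosolic chaperone Hsp90aa1 by 0.27 (adjusted p = 0.00663). Hsp90b1, its counterpart of the endoplasmic reticulum, fell by 0.20 (adjusted p = 0.0183), a call lost without DMSO replicate 1 or 2 or NOE replicate 1 or 2. Higher were the chaperone Hsph1, by 0.20 (adjusted p = 0.00963), and Xbp1, the splicing-activated factor of the unfolded protein response, by 0.28 (adjusted p = 0.0286, and 0.0509 without DMSO replicate 1). Of 12 NRF2 and oxidative stress genes 4 were higher and 3 lower, beside 22.6% and 22.3% of all tested genes. Txnrd1, thioredoxin reductase, had 279, 296, 294 and 285 CPM with NOE and 146, 148, 139 and 146 CPM with DMSO, a 1.99-fold rise (adjusted p = 2.50e-18), and Cat, catalase, rose by 0.53 (adjusted p = 4.69e-13). Nfe2l2, which encodes NRF2 itself, rose to 64.6 ± 6.64 CPM with NOE, against 44.0 ± 1.40 CPM with DMSO (SD, n = 4 each; adjusted p = 2.88e-08), and the autophagy receptor Sqstm1 rose by 0.34 (adjusted p = 0.0105). The lower members were Gclm, of glutathione synthesis, G6pdx, the first enzyme of the pentose phosphate pathway, and Sod2, mitochondrial superoxide dismutase, which fell by 0.39, 0.36 and 0.36.

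Glycolysis and hypoxia genes separated MIG from IK6 cells. In MIG cells 2 of 21 glycolysis and glucose uptake genes were higher and 2 lower with NOE (median −0.08), and 4 were lower when DMSO replicate 1 was left out. Of all tested genes 22.6% were higher and 22.3% lower in MIG. In IK6 cells 19 of the 21 were higher and 1 lower (median 0.61), against 22.8% and 18.2% of all tested genes. The change was lower in MIG by the test of the difference for 15 of the 21, against 6.62% of all tested genes. It was lower for 10 without DMSO replicate 3 or without IK6 NOE replicate 1. Pfkp, a phosphofructokinase, had 428, 435, 421 and 459 CPM with NOE and 564, 616, 569 and 629.8 CPM with DMSO in MIG cells, a fall by 0.45 (adjusted p = 4.04e-06). In IK6 cells Pfkp had 471, 506, 406 and 479.9 CPM with NOE and 358, 356, 361 and 357 CPM with DMSO, a change of 0.38 (adjusted p = 5.30e-05), and the difference was −0.83 (SE 0.10, adjusted p = 5.00e-07).

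Slc2a1, the glucose transporter GLUT1, had a log2 change of −0.20 in MIG (adjusted p = 0.0796) and 0.66 in IK6 (adjusted p = 6.34e-07). Ldha, lactate dehydrogenase A, had 2324, 2168, 2244 and 2107 CPM with NOE and 2403, 2665, 4060.1 and 2700.1 CPM with DMSO in MIG cells, where DMSO replicate 3, the library rich in ribosomal protein counts, stood above the rest (adjusted p = 0.0636). Pfkfb3, which makes the activator of phosphofructokinase, rose by 0.24 in MIG and 0.33 in IK6. Pdk1, a pyruvate dehydrogenase kinase, rose in both, by 0.35 in MIG and 0.97 in IK6, and Slc16a1, a lactate transporter, fell in both, by 0.56 in MIG (adjusted p = 1.40e-09).

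Of 18 hypoxia genes 7 were higher and 7 lower in MIG cells (median 0.10), with 4 higher when NOE replicate 4 was left out. Of all tested genes 22.6% were higher and 22.3% lower in MIG. In IK6 cells 16 of the 18 were higher and none lower (median 0.81), against 22.8% and 18.2% of all tested genes. By the test of the difference 11 of 18 changed lower in MIG, against 6.62% of all tested genes. Ndrg1, a stress-induced gene, had 49.0, 51.1, 49.2 and 57.8 CPM with NOE and 65.1, 74.6, 76.9 and 76.7 CPM with DMSO in MIG cells, a fall by 0.50 (adjusted p = 1.04e-04). Its IK6 libraries had 127, 117, 95.0 and 116 CPM with NOE and 53.8, 53.6, 56.4 and 54.1 CPM with DMSO, so that the direction was opposite (IK6 change 1.06, difference −1.56, adjusted p = 3.22e-09). Mxi1, a MYC antagonist, likewise fell in MIG (−0.44, adjusted p = 1.68e-05) with a change of 0.61 in IK6. Ankrd37, a hypoxia-induced ankyrin protein, rose in both, 1.83-fold in MIG (adjusted p = 5.06e-08).

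**Figure D4:**
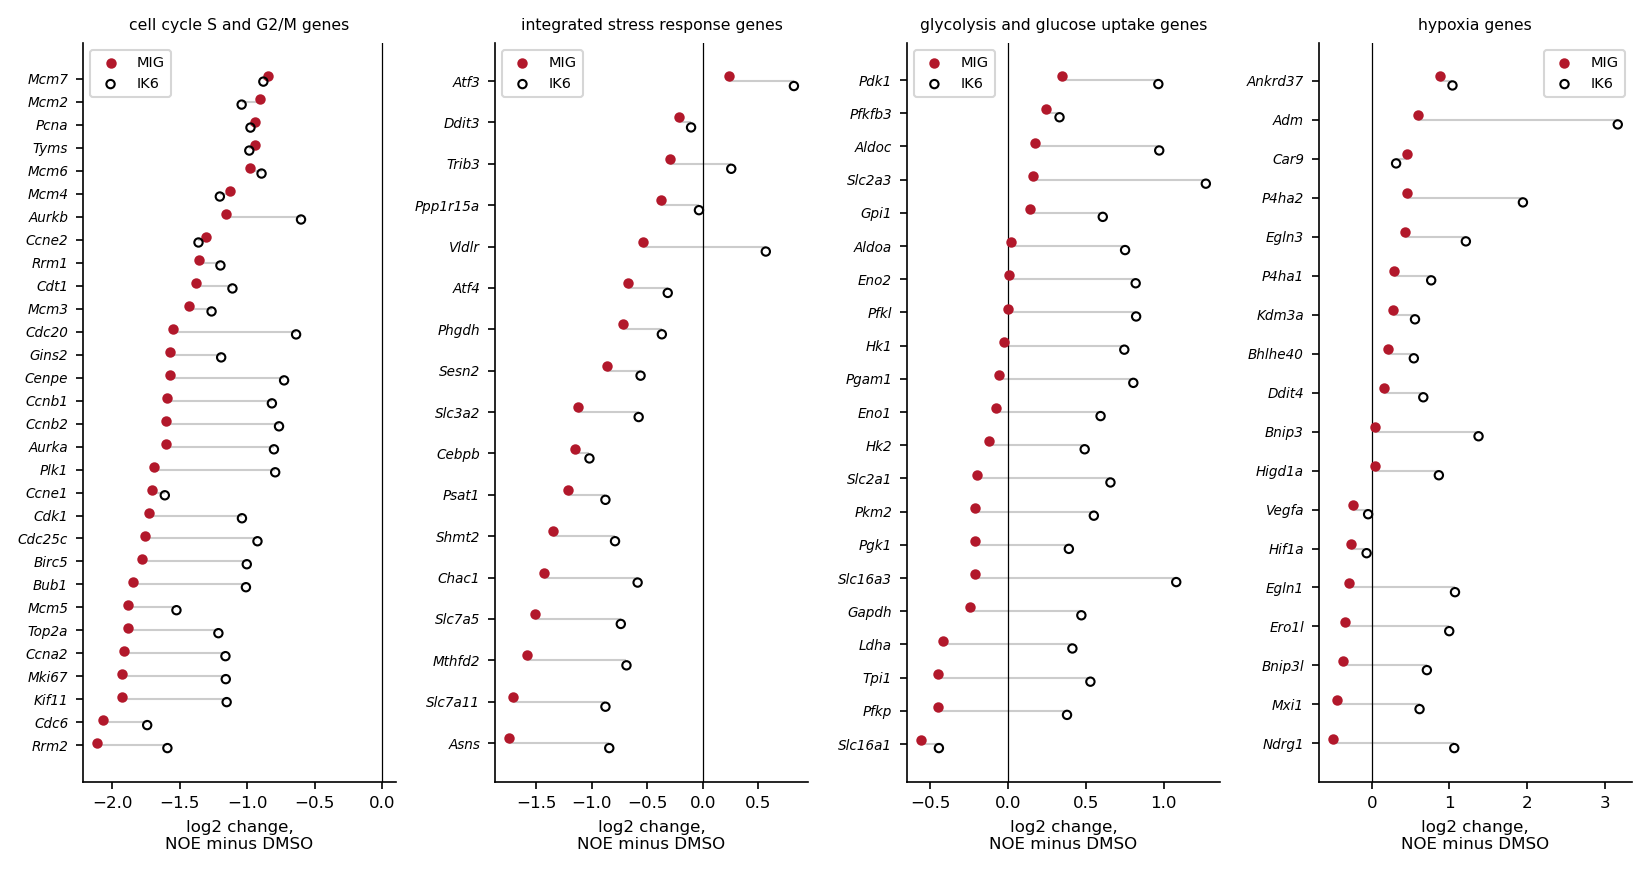
Log2 change with NOE (horizontal axes, NOE minus DMSO) in MIG cells (red, filled) and IK6 cells (black, open) for every tested gene of 4 lists, joined by a grey line for each gene. The cell cycle genes are lower in both cell types, while 19 of 21 glycolysis genes are higher in IK6 cells and most MIG points lie near 0.

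The genes of the pre-B cell moved strongly, and most were higher with NOE. Of 22 genes of the pre-B cell receptor and B lineage, 14 were higher and 4 lower, with a median of 0.40. Of all tested genes 22.6% were higher and 22.3% lower. Rag1, the catalytic subunit of the recombinase, had 66.5, 71.4, 80.9 and 79.6 CPM with NOE and 9.27, 8.18, 8.93 and 7.62 CPM with DMSO. It rose 8.78-fold (log2 3.13, SE 0.10, adjusted p = 2.31e-22). Rag2, its partner, rose 4.89-fold to 10.3 ± 0.676 CPM with NOE, against 2.11 ± 0.224 CPM with DMSO (SD, n = 4 each; adjusted p = 1.42e-18). Dntt, which adds nucleotides at the joins, had 375, 372, 421 and 419 CPM with NOE and 69.3, 68.4, 84.6 and 73.0 CPM with DMSO, 5.37-fold higher (adjusted p = 4.07e-18). Il7r, the alpha chain of the interleukin-7 receptor, had 103, 110.2, 136 and 138 CPM with NOE and 35.3, 33.6, 28.5 and 33.2 CPM with DMSO, 3.73-fold higher (adjusted p = 1.11e-17).

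The other higher members changed by less. Blnk, the adaptor below the receptor, had 319, 335, 344 and 328 CPM with NOE and 166, 157, 169 and 165 CPM with DMSO, 2.02-fold higher (adjusted p = 1.99e-18). Igll1 rose 1.34-fold (adjusted p = 0.0013). Cd22, an inhibitory lectin of the B cell surface, had 50.5, 49.9, 48.8 and 51.5 CPM with NOE and 369.6, 369.6, 315 and 355 CPM with DMSO. It fell 7.02-fold (log2 −2.81, SE 0.07, adjusted p = 1.60e-25), the largest fall of this list. Cd93 and Cd24a, surface markers of early B cells, and Cd72, an inhibitory coreceptor, fell by 0.78, 0.61 and 0.54. In IK6 cells Cd22 fell as well, by 2.09 (difference −0.72, adjusted p = 6.53e-07).

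Immunoglobulin segments split by locus. Of 28 heavy chain V segments tested 19 were higher and 1 lower, with a median of 1.68. Of all tested genes 22.6% were higher and 22.3% lower. The summed level of all 113 heavy chain V segments in the files, tested or not, was 36.3, 36.0, 39.5 and 41.7 CPM with NOE and 33.3, 34.1, 27.1 and 34.0 CPM with DMSO. Of 26 kappa V segments 1 was higher and 16 lower, with a median of −1.36, against those same shares of all tested genes. The sum of all 103 kappa V segments was 23.8, 25.0, 28.1 and 31.3 CPM with NOE and 50.1, 47.1, 42.5 and 45.3 CPM with DMSO. Lambda segments gave 2 lower of 4. The NOE and DMSO sums did not overlap at either locus. Many V segments are near copies of others, so counts of single segments are uncertain and the sums are the firmer values. The heavy chain sum rose by less than the median of its tested segments.

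**Figure D5:**
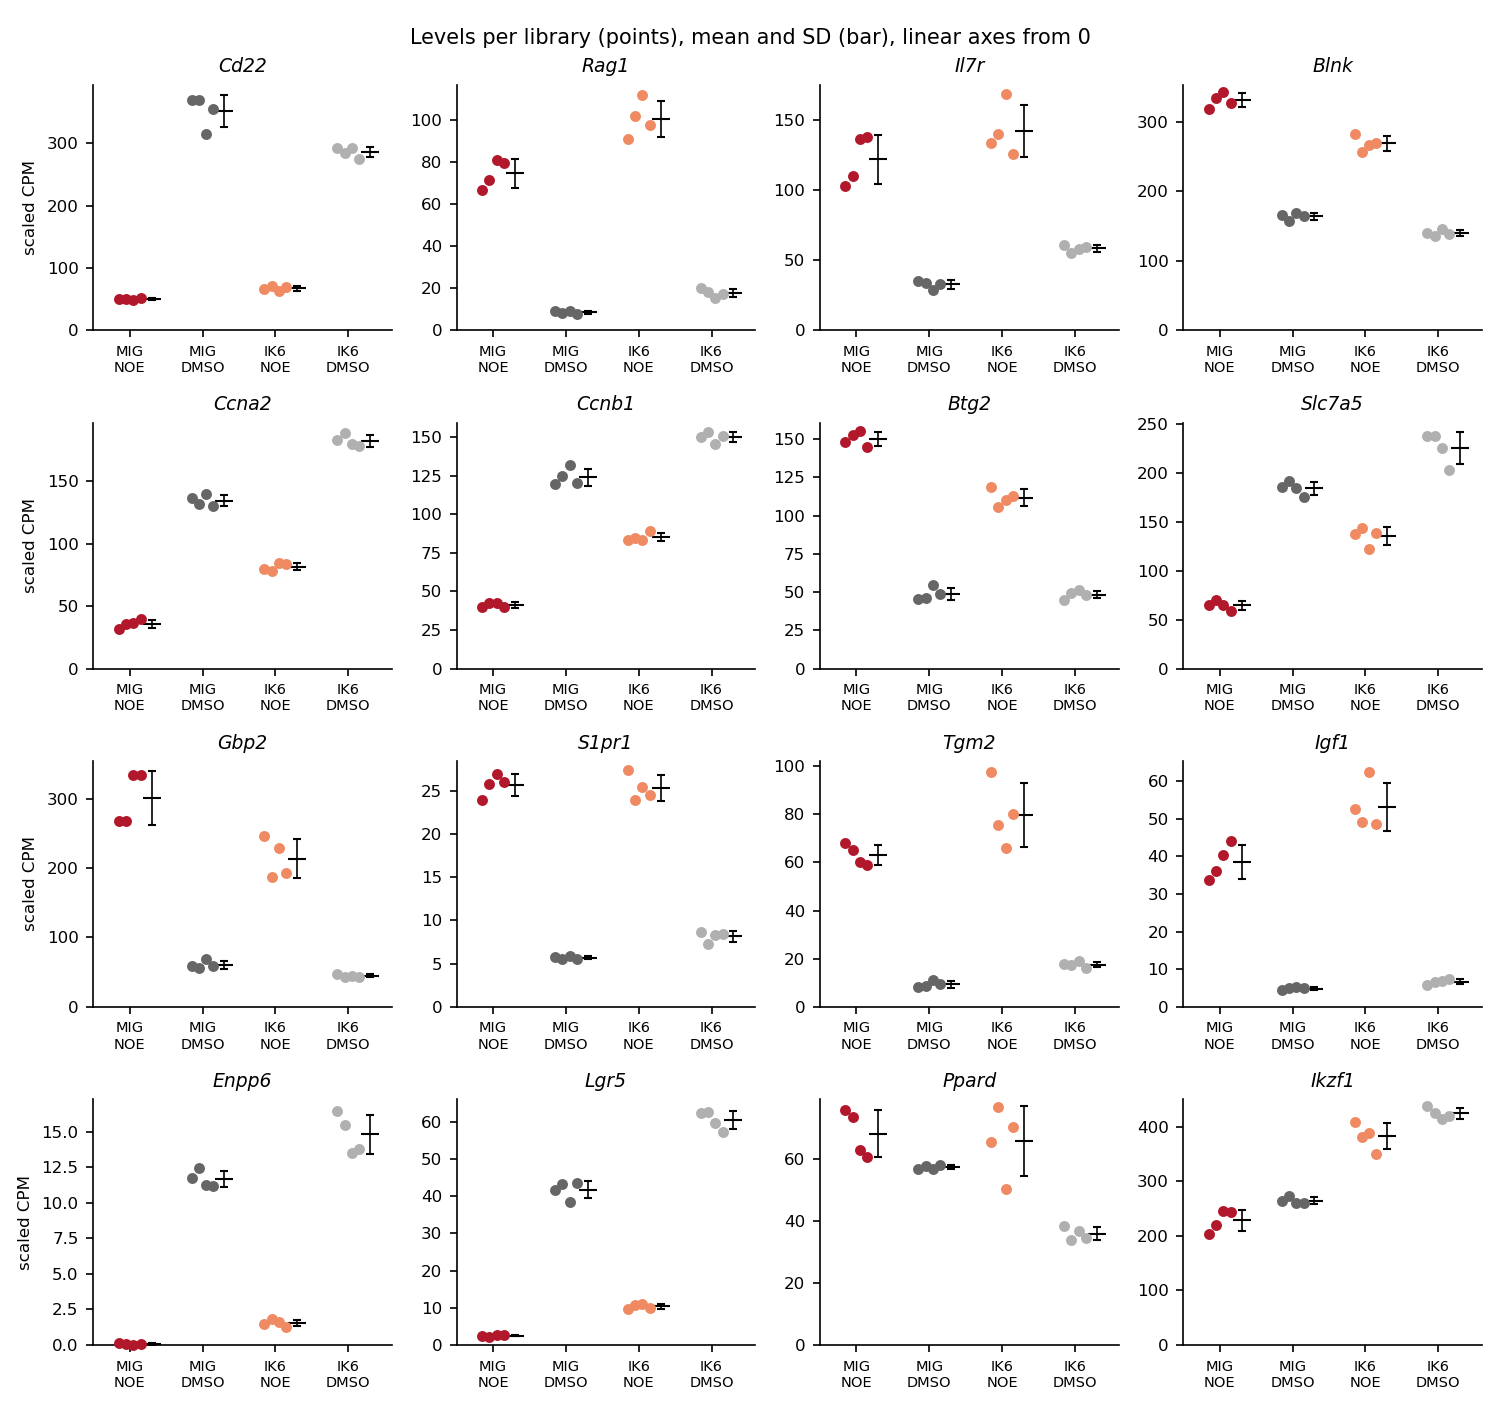
Scaled CPM of 16 genes in MIG and IK6 cells given NOE or DMSO, 1 point per library with the mean and SD of 4 libraries beside them; each vertical axis is linear and starts at 0. Cd22 is near 50 CPM in every MIG NOE library and above 300 CPM in every MIG DMSO library, while Rag1 and Il7r are higher with NOE in both cell types.

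Transcription factors of the B lineage changed by less than the recombinase genes. Ikzf1, which encodes Ikaros, had 204, 219.8, 246 and 243 CPM with NOE and 264, 273, 261 and 259 CPM with DMSO, a fall by 0.21 (SE 0.06, adjusted p = 0.00607) with no overlap. Without NOE replicate 1 the fall was 0.14 (adjusted p = 0.0715). Of 20 factors 9 were higher and 6 lower (median 0.16), beside 22.6% and 22.3% of all tested genes. Lef1, an HMG-box factor of early B cells, rose 1.82-fold to 189 ± 9.04 CPM with NOE, against 104 ± 3.70 CPM with DMSO (SD, n = 4 each; adjusted p = 1.61e-14). Spib, an ETS factor, rose to 481 ± 22.3 CPM with NOE, against 321 ± 10.4 CPM with DMSO (adjusted p = 8.52e-11), and Ebf1, which commits cells to the B lineage, rose 1.34-fold (adjusted p = 2.28e-06). The interferon regulatory factors of the B lineage fell: Irf8 had 249 ± 14.6 CPM with NOE and 452 ± 24.3 CPM with DMSO (adjusted p = 1.26e-12), and Irf4 148 ± 10.9 CPM and 218 ± 10.4 CPM (adjusted p = 3.63e-09). Pax5 had 169, 167, 144 and 127 CPM with NOE and 190.5, 185, 159 and 183 CPM with DMSO, and its groups overlapped (adjusted p = 0.136).

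Feedback genes of STAT5 and ERK went both ways, 10 higher and 8 lower of 25, beside 22.6% and 22.3% of all tested genes. Cish, a STAT5-induced inhibitor of cytokine signals, had 216, 224, 206 and 211 CPM with NOE and 104, 100.2, 89.5 and 109 CPM with DMSO, a 2.12-fold rise (adjusted p = 1.73e-14), and the kinase Pim1, 1.70-fold higher (adjusted p = 1.31e-13). Socs2, another such target, fell 1.42-fold (adjusted p = 1.05e-10). Etv4, an ETS factor induced by ERK, had 4.57, 4.28, 3.99 and 3.37 CPM with NOE and 10.9, 10.6, 11.2 and 10.8 CPM with DMSO, 2.67-fold lower (adjusted p = 3.49e-14). Of 12 cAMP-responsive genes 7 were lower and 3 higher (median −0.47), beside 22.3% and 22.6% of all tested genes. Among the higher members, Pde4b, a cAMP phosphodiesterase, rose 1.57-fold (adjusted p = 3.90e-12) and Crem, a CREB-family regulator, and Pde3b, a further phosphodiesterase, by 0.57 and 0.31 on the log2 scale. Of the 7 lower members only the kinase Sik1 is named, which fell 1.55-fold (adjusted p = 1.48e-09). Changes in this list reached down to −1.91 on the log2 scale.

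The BCL2 family gave 5 higher and 3 lower of 11 tested, beside 22.6% and 22.3% of all tested genes. Among its BH3-only killers, Bcl2l11 (Bim) rose to 182 ± 5.42 CPM with NOE, against 113 ± 6.89 CPM with DMSO (SD, n = 4 each; adjusted p = 1.03e-10), and Bmf to 64.1 ± 1.81 CPM, against 43.9 ± 3.69 CPM (adjusted p = 5.67e-09). Pmaip1 (Noxa) fell 1.90-fold and Bbc3 (Puma) 1.76-fold (adjusted p = 2.08e-11 and 5.57e-05), while the fall of Bid by 0.22 (adjusted p = 0.0214) was lost without DMSO replicate 3 or NOE replicate 2 or 3. The survival genes Bcl2, Bcl2l1 (which encodes BCL-XL) and Mcl1 rose, Bcl2 to 332 ± 28.5 CPM with NOE, against 207 ± 27.1 CPM with DMSO (adjusted p = 1.23e-04), Bcl2l1 by 0.47 and Mcl1 by 0.25. BH3-only genes were thus called in opposite directions.

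Interferon-response genes were mostly higher, 16 of 23, with 4 lower (median 0.48), beside 22.6% and 22.3% of all tested genes. Gbp2, a guanylate-binding GTPase, had 267, 268, 334 and 334 CPM with NOE and 58.7, 56.0, 69.1 and 59.0 CPM with DMSO. It rose 4.96-fold (log2 2.31, SE 0.14, adjusted p = 1.06e-15), and the NOE libraries fell into a lower and a higher pair. Irf1 rose to 91.3 ± 3.83 CPM with NOE, against 50.1 ± 1.31 CPM with DMSO (SD, n = 4 each; adjusted p = 3.77e-15), and Usp18, a brake on the interferon receptor, rose 1.98-fold (adjusted p = 5.45e-10). The 4 lower members were Mx1, the antiviral GTPase, with 0.764 ± 0.171 CPM with NOE and 1.51 ± 0.404 CPM with DMSO, the RNA sensor Ifih1, Ifit2 and Bst2 (tetherin). Mx1 fell 1.93-fold in MIG cells but rose by 1.34 on the log2 scale in IK6 cells (difference −2.28, adjusted p = 1.55e-05). Ifih1 and Ifit2 fell by 0.45 and 0.43, and the fall of Bst2 by 0.52 (adjusted p = 0.0141) was lost without DMSO replicate 3 or NOE replicate 3.

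The interferon-stimulated response element, searched as a pair of TTTC with any 2 bases between, was in 12 of 24 windows of 18 members and in 3.44% of all windows. Gbp2, at chr3:142620543-142620662 on the plus strand, holds it 59 bases before the start, in capitals.
Gbp2: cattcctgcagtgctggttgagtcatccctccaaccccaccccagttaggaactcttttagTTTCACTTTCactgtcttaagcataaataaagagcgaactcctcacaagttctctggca

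Of 10 MHC class II genes 5 were higher and 1 lower, beside 22.6% and 22.3% of all tested genes. The lower one, the alpha chain gene H2-Aa, was below 1 CPM in both groups, with 0.285 ± 0.0905 CPM with NOE and 0.585 ± 0.104 CPM with DMSO. The 5 higher genes serve peptide loading. H2-DMb2, of the peptide editor, rose 2.27-fold to 36.7 ± 1.49 CPM with NOE, against 16.2 ± 1.97 CPM with DMSO (SD, n = 4 each; adjusted p = 1.93e-10), and Cd74, the invariant chain, rose 1.38-fold (adjusted p = 3.31e-04). H2-DMa and H2-DMb1, partners in the same editor, rose by 0.56 and 0.83, and H2-Oa, of its inhibitor, by 0.47 (adjusted p = 0.00419, 1.81e-08 and 0.0165).

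Among 20 integrin and adhesion genes 7 were higher and 6 lower, beside 22.6% and 22.3% of all tested genes. Itgal, the alpha chain of LFA-1, had 303, 313, 313 and 302 CPM with NOE and 142, 139.9, 129 and 142 CPM with DMSO, 2.23-fold higher (adjusted p = 2.83e-18). Cd44, the hyaluronan receptor, and Itgb3, integrin beta 3, fell 1.76-fold and 2.38-fold (adjusted p = 2.58e-13 and 2.36e-17).

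Genes of other lineages and stages moved in several directions. The counts below stand beside 22.6% of all tested genes higher and 22.3% lower. Of 12 stem and progenitor genes 7 were tested, 2 were higher and 1 lower: Flt3, a receptor of early progenitors, rose 5.20-fold to 4.60 ± 0.652 CPM with NOE, against 0.886 ± 0.0874 CPM with DMSO (adjusted p = 8.43e-14), Ly6a, the stem cell antigen Sca-1, rose 3.92-fold to 41.8 ± 1.09 CPM, against 10.7 ± 1.13 CPM (adjusted p = 6.94e-12), and Lmo2, a progenitor cofactor, fell 3.77-fold, with 13.4, 12.6, 13.6 and 12.8 CPM with NOE and 45.5, 47.9, 55.8 and 48.4 CPM with DMSO (adjusted p = 3.40e-19). Of 12 myeloid markers 4 were tested and 2 were higher, Lyz2 (lysozyme) at 5.31, 4.42, 5.06 and 4.59 CPM with NOE and 0.546, 0.466, 0.862 and 0.610 CPM with DMSO, and Itgam (the alpha chain of Mac-1) at 10.3, 10.4, 11.3 and 11.4 CPM with NOE and 3.72, 3.24, 2.39 and 4.03 CPM with DMSO. The defining granule markers S100a8, S100a9, Mpo and Elane had 3 counts or fewer over all 8 libraries. Both tested T and NK markers were higher, Lck 1.29-fold with overlapping libraries (adjusted p = 0.00634) and Klrb1c, the NK1.1 antigen, at 1.56 ± 0.208 CPM with NOE and 0.440 ± 0.122 CPM with DMSO, 3.63-fold (adjusted p = 1.10e-08). Of 6 erythroid and megakaryocyte markers tested 2 were higher and 2 lower. Gata1, the erythroid factor, was higher at 0.348 ± 0.0501 CPM with NOE and 0.116 ± 0.0889 CPM with DMSO (adjusted p = 0.00454). Itga2b, the platelet integrin, was higher at 2.15 ± 0.251 and 1.44 ± 0.411 CPM, NOE and DMSO, a call lost without DMSO replicate 2 or 3 or NOE replicate 1. Klf1 was lower at 0.238 ± 0.0773 and 0.476 ± 0.134 CPM, NOE and DMSO, a call lost without DMSO replicate 2, 3 or 4 or NOE replicate 2, 3 or 4. With such a call lost, the higher or the lower count was 1. Hbb-b1, adult beta globin, fell 4.62-fold to 2.38, 1.96, 1.67 and 1.70 CPM with NOE, against 6.35, 7.10, 14.7 and 8.23 CPM with DMSO (adjusted p = 5.70e-07). Neither tested stromal marker passed.

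The largest rises among genes with at least 1 CPM in a group were chosen by the size of the change, so they are given as a description. Serpinb9c, a serpin of a mouse family of protease inhibitors, had 11.7, 11.4, 14.3 and 14.7 CPM with NOE and 1.16, 0.953, 1.14 and 1.05 CPM with DMSO, 12.2-fold higher. Its near copy Serpinb9f had a change of 3.04, and reads may be split between the pair. Eya2, a phosphatase and transcription cofactor, had 8.13, 7.15, 8.04 and 7.55 CPM with NOE and 0.674, 0.593, 0.705 and 0.813 CPM with DMSO, 11.2-fold higher. These groups did not overlap, as the choice required. Igf1, insulin-like growth factor 1, had 33.7, 36.2, 40.3 and 44.1 CPM with NOE and 4.33, 4.89, 5.17 and 4.91 CPM with DMSO, 7.98-fold higher (SE of log2 0.09). Pgf, placental growth factor, had 60.5, 64.0, 79.0 and 73.0 CPM with NOE and 8.06, 8.30, 9.72 and 8.77 CPM with DMSO, 7.95-fold higher.

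Rag1 and Lyz2, given above, were also among the 15. Of the rest, Scel, sciellin of the cornified envelope, had 6.62 ± 0.758 CPM with NOE and 0.840 ± 0.327 CPM with DMSO, Clec4f, a lectin of macrophages, 6.64, 6.67, 6.93 and 8.94 CPM with NOE and 0.674, 0.953, 0.745 and 0.711 CPM with DMSO, Fcrl6, an Fc receptor-like protein, 10.9 ± 1.54 and 1.49 ± 0.322 CPM, and Osgin1, an oxidative stress response gene, 5.69 ± 0.847 and 0.765 ± 0.0840 CPM (SD, n = 4 each). Levels near 1 CPM with NOE were reached by Gprin3 (1.08 ± 0.261 with NOE and 0.101 ± 0.0358 CPM with DMSO), St6galnac5, a sialyltransferase (1.06 ± 0.129 and 0.137 ± 0.0695 CPM), and Ctla2a, a cysteine protease inhibitor (1.02 ± 0.127 and 0.132 ± 0.0271 CPM), and Smoc1, a matrix protein, rose to a similar level (1.63 ± 0.179 and 0.191 ± 0.106 CPM). Their changes ran from 2.88 for Ctla2a to 3.39 for Gprin3.

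The largest falls, of which 14 of 15 are named, left some genes with a few counts per NOE library. All 15 were chosen by size and for groups without overlap, so they too are a description. Enpp6, a choline phosphodiesterase, had 0.124, 0.0400, 0.0283 and 0.0680 CPM with NOE and 11.8, 12.4, 11.3 and 11.2 CPM with DMSO. That is 166-fold lower (log2 −7.37, SE 0.17), while in IK6 cells the change was −3.26. Hbb-bh1, an embryonic globin, had 2 counts in all NOE libraries and 1.51, 1.25, 1.76 and 1.59 CPM with DMSO, a ratio of 121-fold with a 95% counting interval of 33.1 to 1007. Slco5a1, an organic anion transporter, had 0.165, 0.140, 0.226 and 0.272 CPM with NOE and 11.7, 11.7, 7.45 and 10.4 CPM with DMSO, 53.2-fold lower. Ccr6, a chemokine receptor of B cells, had 0.103, 0.0999, 0.170 and 0.170 CPM with NOE and 5.71, 5.55, 4.35 and 5.49 CPM with DMSO, 40.0-fold lower.

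Lgr5, the R-spondin receptor, had 2.52, 2.20, 2.66 and 2.65 CPM with NOE and 41.8, 43.4, 38.4 and 43.6 CPM with DMSO, 16.8-fold lower (SE of log2 0.09). Cmah, the hydroxylase that makes N-glycolylneuraminic acid, had 9.53, 9.95, 10.6 and 13.1 CPM with NOE and 130.4, 130.3, 104 and 131 CPM with DMSO, 11.5-fold lower. Tox, a nuclear factor of lymphoid development, had 1.20, 0.859, 1.27 and 0.884 CPM with NOE and 17.5, 18.8, 18.3 and 16.9 CPM with DMSO, and Srpk3, a kinase of splicing factors, 1.86, 1.84, 1.78 and 1.97 CPM and 31.9, 32.8, 30.8 and 33.0 CPM. Levels of the others ran, NOE against DMSO, 0.155 ± 0.0436 and 5.81 ± 1.17 CPM for Nrgn, a calmodulin-binding protein, 0.345 ± 0.117 and 9.48 ± 0.589 CPM for Crisp3, a secreted cysteine-rich protein, and 0.492 ± 0.105 and 6.67 ± 1.93 CPM for Slpi, a secreted protease inhibitor. Cd28, a costimulatory receptor, had 0.191 ± 0.108 CPM with NOE and 2.19 ± 0.409 CPM with DMSO, Cables1, a CDK-binding protein, 0.107 ± 0.0572 and 1.60 ± 0.278 CPM, and Gcet2, a germinal centre gene, 0.0965 ± 0.0345 and 1.19 ± 0.0997 CPM (SD, n = 4 each). All of these genes but Cmah were below 3 CPM in every NOE library.

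The genes with the smallest p for a difference between MIG and IK6 cells were Enpp6, Lgr5, Rhoq, Tmprss3 and Adam19, all with a change lower in MIG; they were chosen by that p and are described here. Adam19, a membrane metalloprotease, had 6.04 ± 0.280 CPM with NOE and 19.9 ± 1.49 CPM with DMSO in MIG cells (SD, n = 4 each), 3.30-fold lower. In IK6 cells it had 10.4, 11.4, 9.32 and 10.6 CPM with NOE and 10.7, 9.86, 10.4 and 10.3 CPM with DMSO, a change of 0.02 (difference −1.74, SE 0.13, adjusted p = 1.11e-10). Rhoq, a small GTPase, changed by −1.85 in MIG and −0.34 in IK6 (difference −1.51, adjusted p = 1.44e-12). Tmprss3, a serine protease, changed by −2.55 and −1.02 (difference −1.52, adjusted p = 1.11e-10). Of the largest rises, Smoc1 had a change of 3.15 in MIG and 0.16 in IK6 (adjusted p of the difference 3.31e-08).

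NOE and carbacyclin, both at 1 µM in MIG cells, gave different levels for 8170 of 15699 genes (52.0%). Against carbacyclin 3969 genes were higher with NOE (25.3%) and 4201 lower (26.8%), and 14 of 23 PPAR targets were lower and 4 higher, with a median of −0.51. Pdk4, a pyruvate dehydrogenase kinase and PPAR target, had 0 counts in the NOE libraries, 0.942, 1.03, 0.929 and 0.924 CPM in the carbacyclin libraries and 0 counts with DMSO. With a limit of 3 counts over the NOE group this is at least 51.0-fold lower than with carbacyclin. Cpt1a had 32.1, 31.6, 32.9 and 31.3 CPM with NOE and 264, 263, 255 and 283 CPM with carbacyclin, a difference of −3.06 (SE 0.05, adjusted p = 9.81e-30). Acsl1 differed the other way, 0.32 higher with NOE (adjusted p = 5.55e-07), as did Ppard, 0.88 higher (adjusted p = 3.13e-09).

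Itgb3 had 9.16, 9.69, 9.22 and 10.5 CPM with NOE and 246, 240.2, 227 and 203 CPM with carbacyclin, a difference of −4.57 (adjusted p = 2.37e-31). Mxd1, a MYC antagonist, had 18.4, 20.5, 19.8 and 21.0 CPM with NOE and 159, 159.6, 152 and 164 CPM with carbacyclin (−2.99, adjusted p = 7.14e-27), and its NOE and DMSO levels overlapped. P2rx3, an ATP-gated channel, had 51.0, 53.0, 50.5 and 53.8 CPM with NOE and 354, 361, 337 and 352 CPM with carbacyclin (−2.75, adjusted p = 2.19e-27). With NOE 16 of 21 glycolysis genes were higher and 1 lower than with carbacyclin (median 0.73), against 25.3% and 26.8% of all tested genes. With only the 8 compared libraries in the fit, 5233 genes differed between the compounds, in place of 8170. Without carbacyclin replicate 4, the library rich in ribosomal protein counts, 7650 genes differed, 13 PPAR targets were lower and 4 higher (median −0.36), and 19 glycolysis genes were higher and 1 lower (median 0.99). Cpt1a, Itgb3, Mxd1, P2rx3, Acsl1 and Ppard then differed by −3.04, −4.64, −2.99, −2.76, 0.30 and 0.85, each still past the threshold.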

How the data were processed

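RNA was sequenced in 37 libraries of 10 groups (Trizol extraction, TruSeq RNA libraries, Illumina sequencing, per the labels' protocols). The authors deposited raw read counts per gene, 1 table per sample, over 35290 genes; the tools named are BWA 0.5.9 and HTSeq with mouse build mm9, per the submitters' processing notes. Neither annotation nor strand setting is given in the sources used here, so overlapping and antisense genes cannot be told apart, and reads of near-identical genes may be lost or split. Of the symbols, 195 stand on more than 1 row.

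Counts were tested with edgeR 4.0.16 (limma 3.58.1, R 4.3.3): TMM scaling, genes kept by filterByExpr (minimum count 10, total 15), 15699 tested and 19591 not, and 1 robust quasi-likelihood model of all 10 groups with 27 residual degrees of freedom. Sharing the spread over all groups gave a biological coefficient of variation of 0.112. Benjamini-Hochberg adjustment ran over all tested genes with a threshold of 0.05. Levels are CPM on TMM-scaled library sizes and are not compared between genes, since they are not per length. The standard error (SE) is the log2 change divided by the square root of F. Each comparison has 4 libraries a group, and total counts set the counting precision. They were 28961454 to 49666397 in the MIG NOE and DMSO libraries and 18521726 to 69016668 in the other compared libraries. Floors (3 counts over a group) and intervals (95%) cover counting error only, since reads were not molecules.

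The named genes are the 15 largest rises and falls past the threshold (a mean of at least 1 CPM, no overlap, no predicted genes), up to 4 members of each list by smallest adjusted p, all acylethanolamide genes, and the 5 with the smallest p against IK6 and carbacyclin. Chosen after their values were seen were Mcm6, Asns, Il7r, Dntt, Cdkn1a, Myc, Ldha, Slc2a1, Igll1, Ebf1, Pax5, S1pr4 and further members named where a list had 5 or fewer calls in a direction. A few genes are not reported here. The comparison, the 27 lists and the tests were chosen with earlier results of these data known, so no list is independent evidence. Alternatives were other scalings, filters, a ribosomal protein covariate, a replicate block, fits of the compared groups, leaving out each library and DESeq2 1.42.0. The test was tried on simulated counts. Within a group no 2 libraries agreed within sampling noise (chi-square per degree of freedom 3.00 or more). Promoter sequences are RefSeq windows of GRCm38.p6, another build than that of the counts, matched by symbol. Figures were drawn with matplotlib 3.10.9 (Python 3.11.15, pandas 2.3.3, numpy 2.4.6).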

Additional observations from a re-analysis of the deposited data

Results flagged for a closer look

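Among 398 groups of 4 values, 45 had a library that stood far from the other 3 by Dixon's gap test at its 95% level; chance gives about 1 in 20. DMSO replicate 2 was set apart by its total of 47969941 counts. DMSO replicate 3 was set apart by ribosomal protein genes at 15.713% and by its 50 most abundant genes at 17.914% of counts. Carbacyclin replicate 4 and IK6 DMSO replicate 4 were set apart by their 50 most abundant genes, at 17.691% and 13.347% of counts. Replicate 1 of NOE stood below its group for Scd2 (1528 CPM). Replicate 2 of NOE stood above its group for H2-Aa (0.420 CPM). Replicate 3 of NOE stood above its group for Cnr2 (10.8 CPM) and Abcg1 (83.4 CPM). Replicate 4 of NOE stood above its group for Clec4f (8.94 CPM) and Asah1 (101 CPM). Replicate 4 of NOE stood below its group for Tspan15 (2.69 CPM) and Cd74 (81.4 CPM). Replicate 1 of DMSO stood below its group for Cd72 (103 CPM). Replicate 3 of DMSO stood above its group for Nrgn (7.56 CPM), Gpr18 (9.95 CPM), Sgpp1 (80.8 CPM), Acat2 (109 CPM), Slc16a1 (243 CPM), Cdkn2c (54.0 CPM), Odc1 (425 CPM), Mgll (16.0 CPM), Abhd6 (4.51 CPM), Scp2 (95.1 CPM), Cdkn2a (115 CPM), Asns (229 CPM), Igll1 (1005 CPM), Lpcat3 (80.2 CPM), H2-Oa (32.8 CPM), Sod2 (88.4 CPM), Bcl2l1 (101 CPM), Bid (58.2 CPM), Cd24a (1308 CPM), Cpt2 (20.0 CPM) and Hadha (156 CPM). Replicate 3 of DMSO stood below its group for Scel (0.353 CPM), Ccr6 (4.35 CPM), Cmah (104 CPM), Acsl1 (64.8 CPM), Bcl2l11 (103 CPM), Itgal (129 CPM), Tm7sf2 (6.86 CPM), Rb1 (61.4 CPM), Pde3b (82.4 CPM) and Asah2 (22.3 CPM).

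The change with NOE differed between MIG and IK6 cells for 1385 genes by edgeR's test of the difference, and 66 of the genes named here are among them. Values are the log2 change in MIG minus that in IK6, each past an adjusted p of 0.05. Of genes that fell in MIG, the change was lower in MIG than in IK6 for Enpp6 −4.11, Nrgn −2.43, Mx1 −2.28, Adam19 −1.74, Slco5a1 −1.63, Ndrg1 −1.56, Lgr5 −1.53, Tmprss3 −1.52, Rhoq −1.51, Cd36 −1.06, Mxi1 −1.06, Cmah −1.05, Odc1 −0.94, Srpk3 −0.92, Asns −0.90, Mthfd2 −0.89, Lmo2 −0.85, Pfkp −0.83, Kif11 −0.78, Ccnb1 −0.78, Slc7a5 −0.78, Ccna2 −0.75, Tox −0.73, Cd22 −0.72, Top2a −0.67, Gde1 −0.57, Shmt2 −0.56, Cdkn2c −0.55, Acot2 −0.51, Sik1 −0.51, Scd1 −0.50, Herpud1 −0.46, Naaa −0.45, Cpt1a −0.42, Scd2 −0.38, Irf8 −0.34, Sgpp1 −0.33, Cd44 −0.30 and Socs2 −0.24. It was less far down than in IK6 for Nolc1 0.24, Slpi 1.37 and H2-Aa 1.58. Of genes that rose in MIG, the change was higher than in IK6 for Mylip 0.20, Txnrd1 0.22, Hsph1 0.40, Btg2 0.41, Itgal 0.43, S1pr1 0.55, Tgm2 0.58, Il7r 0.62, Rxra 0.62, Rag1 0.63, Dntt 0.70, Eya2 0.97, Klrb1c 1.28, Serpinb9c 1.51 and Smoc1 2.99. It was lower than in IK6 for Fabp5 −0.89, Ppard −0.62, Pdk1 −0.62, Usp18 −0.56, Abcg1 −0.47 and Pim1 −0.38. Genes not called in MIG were Slc2a1 −0.86, Ldha −0.83 and Myc −0.30.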

How the results depend on the processing

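The number of genes called for NOE against DMSO in MIG cells was 7050, and stayed within 1.5 times of that under every alternative run. With 1 library left out it ranged from 6436 to 6840, with 3241 to 3647 higher and 2962 to 3406 lower, and DESeq2 called 7114. Genes changed at least 2-fold numbered 1737, 1670 to 1815 with 1 library left out, and 1061 with a mean of at least 1 CPM required. Leaving out 1 library gave 5724 to 6259 genes in IK6 cells, 1112 to 1496 for the difference between MIG and IK6, and 7448 to 8498 for NOE against carbacyclin. The difference between MIG and IK6 rose to 2693 genes with the ribosomal protein share as a covariate, and NOE against carbacyclin fell to 5233 with the compared groups alone; the cause was not tested.

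With the ribosomal protein covariate, glycolysis had 4 higher and 5 lower members, MHC class II 2 lower, and the stress response 1 higher, as with upper quartile scaling. With the compared groups alone, ceramide genes had 2 lower and glycolysis 4 lower members. With at least 1 CPM required, MHC class II had 0 lower, T and NK markers 1 higher, and erythroid markers 1 higher and 1 lower, since fewer genes were tested; erythroid markers also had 1 lower with no expression filter and with the replicate block. With 1 library left out, lower members ranged from 1 to 4 for acylethanolamide genes, 2 to 4 for ceramide genes, 2 to 4 for glycolysis and 1 to 2 for erythroid markers. Higher members ranged from 4 to 8 for hypoxia genes, 0 to 1 for the stress response, 1 to 2 for the unfolded protein response and 1 to 2 for erythroid markers. The change of Ikzf1 ranged from −0.24 to −0.14. Of the differences between MIG and IK6, the glycolysis list had 10 to 18 members called with 1 library left out and 11 with no expression filter, and the hypoxia list had 10 to 13. The stress response list had 8 to 12 with 1 library left out and 9 with no expression filter.

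Of 190 single genes, 162 kept their call under every alternative. Pla2g16, at −0.02 and not called, was 0.15 with the covariate (called) and ranged from −0.088 to 0.19 with 1 library left out, the highest without DMSO replicate 3. Asah1 was not called with no expression filter or with the compared groups alone (adjusted p = 0.134 and 0.0783), nor Ppard with no filter (adjusted p = 0.0632). The calls of 25 further genes changed under some alternative, among them Acer3, Hsp90b1 and S1pr2, lost with the compared groups alone. No scaling moved the median of all genes by over 0.1.

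Replicate numbers did not pair the libraries: same-numbered NOE and DMSO libraries had correlations of their deviations of −0.44 to 0.28, and others of −0.49 to 0.51. With a replicate block the counts were 6892 for MIG, 6227 for IK6, 1287 for their difference and 7964 against carbacyclin. Depth limits the genes near the floor of 0.0185 CPM with NOE and 0.0217 CPM with DMSO.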
